A study of Homo sapiens with 84 samples.

Results

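Kyse30 cells, an established esophageal squamous cell carcinoma line, were treated for 72 h with EGF at 9 nM (EGFhigh) or at 1.8 nM (EGFlow), and both doses were compared directly across all genes. The comparison took in 7 of the 84 libraries of the series, namely the 3 EGFhigh libraries (replicates 1, 3 and 4) and the 4 EGFlow libraries (replicates 1 to 4) whose sample titles name these doses, this line and this time. Both groups had been plated in medium with serum, starved of serum for 24 h and then kept serum-free with EGF until collection, so serum starvation was common to them. All libraries came from a single cell line grown in culture, and whether replicates were separate cultures is not given in the sources used here. The p-values therefore measure the spread between libraries of a group, which may be technical. That spread was estimated across all 43 Kyse30 libraries, not only these 7. RNA was read with a 3′ protocol (QuantSeq 3′ FWD), in which each transcript is read near its 3′ end and a count does not grow with transcript length. The other groups of the line at 72 h, which serve as values beside both doses, were untreated cells and cells treated with Fc, EpEX-Fc or EGFhigh + EpEX (3 libraries each), where EpEX is the extracellular domain of EpCAM fused to an antibody Fc part.

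EGF is a secreted growth factor that binds the receptor tyrosine kinase EGFR, which then passes the signal to the RAS, MEK and ERK kinases and to PI3K and AKT. The cell reads the strength and the duration of the ERK signal: early response genes such as FOS and the DUSP phosphatases are induced within an hour and in part switch the pathway off again. In squamous epithelium, EGFR signalling is known for its part in proliferation, in migration over a laminin matrix during wound closure, in the stress keratins of healing epidermis and, at strong and lasting stimulation, in epithelial-to-mesenchymal transition (EMT). The question of the comparison is what a 5-fold higher EGF concentration does to the transcriptome of the same cells after 72 h.

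Total counts on genes ranged from 3703085 to 9499780 per library, so that 3 counts, the smallest amount taken as a signal, corresponded to 0.350 to 0.847 CPM, the count scaled to a common library size with edgeR's TMM factors. This limit covers counting error only. Reads that matched several places and were left out of the gene counts made up 32.0 to 38.8% of the reads. Mitochondrial genes took 11.7 to 12.9% of the counts in EGFhigh and 9.14 to 14.7% in EGFlow libraries, and ribosomal protein genes 12.8 to 13.9% in EGFhigh and 15.1 to 17.9% in EGFlow. The share of ribosomal protein counts thus did not overlap between the doses, and its part in the results below was not tested.

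Both libraries numbered 1 stood apart from the rest. Of 6413 genes with a mean of at least 20 CPM, 147 in EGFhigh replicate 1 and 89 in EGFlow replicate 1 lay more than 4-fold below the other libraries of their own group, with 67 genes in common, whereas the remaining 5 libraries of both groups had 1 to 8 such genes and the other 41 Kyse30 libraries a median of 3 and at most 69. The urokinase gene PLAU is an example, with 8.05, 372 and 104 CPM in EGFhigh replicates 1, 3 and 4 and 2.96, 63.9, 112 and 59.7 CPM in EGFlow replicates 1 to 4. CDH1 (E-cadherin) had 44.2, 334 and 252 CPM in EGFhigh and 44.3, 164, 260.5 and 161 CPM in EGFlow, in the same order of replicates, which is used throughout. Of the 169 genes far below in either of these libraries, 4 were called between the doses, beside 3.73% of all genes tested. The gap that picked these genes adds to the spread within a group, so this count does not show that other calls were unaffected. Of the 573 genes called between the doses in the main fit, 261 were also called, in the same direction, without both libraries numbered 1. Counts of DEGs were therefore also taken without both libraries numbered 1, a setting chosen after the data had been seen, and are given where they differ by more than 1.5 times.

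Markers were read in CPM of the total counts, without TMM factors. Of the squamous epithelial markers, EGFR, EPCAM, CDH1, DSP, SOX2 and TP63 were detected in all 7 libraries, while the basal keratins were low: KRT5 reached at most 3.13 CPM, and KRT14 at most 2.61 CPM except in EGFhigh replicate 4 with 32.6 CPM. The squamous markers summed to 2390 to 3440 CPM in EGFhigh and 3590 to 4680 CPM in EGFlow, a sum that EGFR itself dominated. The fibroblast markers summed to 17.0 to 28.7 CPM in EGFhigh and 11.1 to 28.4 CPM in EGFlow, and the endothelial markers to 0.105 to 6.84 and 0.914 to 3.36 CPM, with PECAM1, KDR and CLDN5 at 0 in every library. The leukocyte markers summed to 5.37 to 11.8 CPM in EGFhigh and 0.397 to 1.17 CPM in EGFlow. Nearly all of this sum was CD68, a lysosomal protein of macrophages that other cells also make, with 5.71, 7.49 and 11.6 CPM (TMM-scaled) against 0.773, 0.381, 0 and 1.23 CPM (log2FC 3.69 ± 1.14, adjusted p = 0.057, and 0.038 when the replicate number was a block in the fit). The defining leukocyte markers CD3E and MS4A1 were at 0 in all 7 libraries, and PTPRC had 1 count in 1 library.

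The higher dose changed 573 of 15350 genes tested at 72 h, or 3.73%, in the edgeR quasi-likelihood test. A differentially expressed gene (DEG, or called gene) needed an adjusted p no higher than 0.05 together with a log2FC beyond 0.5 in either direction. Of the 573 genes, 311 were higher in EGFhigh (2.03% of the genes tested) and 262 were lower (1.71%), and 2380 genes had an unadjusted p under 0.05. The libraries of both doses did not overlap for 511 DEGs, against 12.4% of all genes tested. Among same-numbered libraries, 306 of the 311 higher DEGs were higher in all 3 pairs and 260 of the 262 lower DEGs were lower in all 3. The DEGs were chosen by their difference in these same libraries, so these counts are not independent support. The median log2FC was 1.18 over the higher and -1.56 over the lower DEGs, beside -0.04 over all genes tested. DEGs higher in EGFhigh were the more abundant, with a median of 66.8 CPM against 23.8 CPM for the lower DEGs and 13.3 CPM for all genes tested. The count was 315 (146 higher, 169 lower) without both libraries numbered 1, 292 (163 and 129) without EGFlow replicate 2 and 241 (156 and 85) when only these 7 libraries entered the fit, and 182 DEGs were called in each of the 7 fits that left out 1 library.

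**Figure D1:**
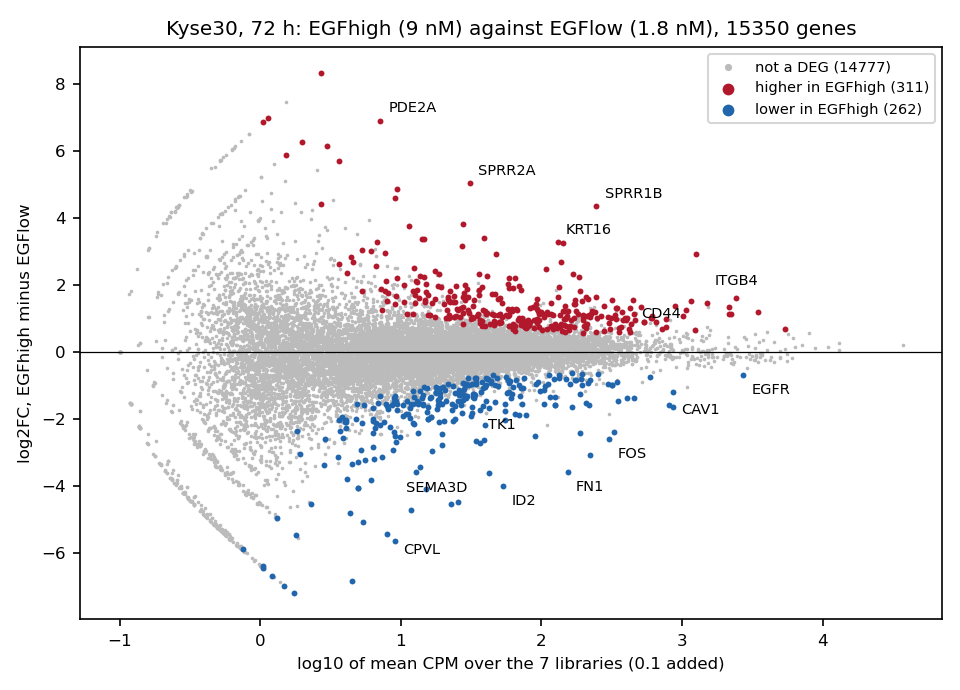
Each point is 1 of the 15350 genes tested in Kyse30 at 72 h, with the mean CPM over the 7 libraries on the x axis (log10, 0.1 added) and the log2FC of EGFhigh minus EGFlow on the y axis. The 311 DEGs higher in EGFhigh are red and the 262 lower are blue. SPRR1B stands far above the other genes of its level, and FN1, ID2 and CAV1 far below.

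Genes of the cornified envelope, the protein shell that keratinocytes cross-link under their membrane when they differentiate terminally, were among those that rose with the dose. Of 33 members tested, 7 were higher in EGFhigh (21.2%) and none was lower, with a median log2FC of 1.13 beside -0.04 for all genes. SPRR1B (chr1:153031202-153032900 of GRCh38, a small proline-rich protein and a substrate of the transglutaminases that build the envelope) had 668, 446 and 495 CPM in EGFhigh and 31.7, 8.0, 20.6 and 44.5 CPM in EGFlow. All EGFhigh libraries were at least 10 times above every EGFlow library (log2FC 4.35 ± 0.41, adjusted p = 1.3e-09). SPRR2A, of the same family, had 132, 39.2 and 37.4 CPM against 2.06, 1.4, 2.82 and 2.33 CPM and did not overlap either (log2FC 5.03 ± 0.75, adjusted p = 2.5e-05). SPRR3 had 534, 322 and 152 CPM against 90.1, 69.7, 80.2 and 47.1 CPM (log2FC 2.23 ± 0.45, adjusted p = 0.0014). Counts of SPRR2A and SPRR2E are uncertain, since members of this family are nearly identical and reads that match several places were dropped.

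The other called members rested on fewer libraries. SPRR2E had 12.2, 28.7 and 21.3 CPM against 0.902, 0, 0 and 1.78 CPM (log2FC 4.84 ± 1.26, adjusted p = 0.018) and was not called without EGFhigh replicate 3 or 4 or EGFlow replicate 2 or 3 (adjusted p = 0.053 to 0.090). ECM1, a secreted matrix protein of the epidermis, had 21, 24.1 and 45 CPM against 0.516, 0.381, 4.23 and 6.58 CPM (log2FC 3.37 ± 0.85, adjusted p = 0.014) and was not called without EGFhigh replicate 4 or EGFlow replicate 2 (adjusted p = 0.081 and 0.069). EMP1, a four-pass membrane protein of squamous epithelium, had 422, 928 and 639.7 CPM against 163, 388, 317 and 345 CPM (log2FC 1.13 ± 0.34, adjusted p = 0.048) and was not called without EGFhigh replicate 3 or 4 or EGFlow replicate 1, 2, 3 or 4 (adjusted p = 0.053 to 0.31). CRCT1 had 4.9, 1.96 and 11.4 CPM in EGFhigh and no count in any EGFlow library, which is at least 12-fold against a level of 3 counts per EGFlow library (adjusted p = 0.035), and it was not called in any fit that left out 1 library (adjusted p = 0.051 to 0.11). The list had 3 called members without both libraries numbered 1, 3 without EGFlow replicate 2, and 4 without EGFhigh replicate 3, EGFhigh replicate 4 or EGFlow replicate 3.

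Most of these genes lie side by side in the epidermal differentiation complex on chromosome 1. Between S100A10 and S100A13 (GENCODE release 29, chr1:151982915-153631360 of GRCh38), 26 genes were tested, of which 8 were higher in EGFhigh and none was lower: SPRR3, SPRR1B, SPRR2E, SPRR2A, CRCT1, S100A9, S100A16 and S100A13. On chromosome 12, 3 of 11 tested genes between KRT80 and KRT18 (chr12:52168996-52952901) were higher, namely KRT6A, KRT8 and KRT18. No DEG was found in the other regions examined, among 10 tested genes from KRT24 to KRT9 on chromosome 17, 4 from MMP7 to MMP13 on chromosome 11, 8 from SERPINB5 to SERPINB8 on chromosome 18 and 2 from CXCL8 to CXCL2 on chromosome 4. Over all genes tested 3.73% were DEGs, and at that share regions with so few genes would mostly hold none. The region on chromosome 17 ends at base 41572058. It leaves out the type I keratins KRT16 (chr17:41609778-41615899) and KRT17 (chr17:41619441-41624842), which lie beyond that end and were both called higher. The S100 proteins, small calcium-binding proteins, had 4 of 12 members higher (33.3%), none lower and a median log2FC of 0.93, with a positive log2FC in 12 of 12. S100A16 had 590.4, 524 and 544 CPM against 283, 214, 226 and 255 CPM, a narrow spread within each dose (log2FC 1.18 ± 0.16, adjusted p = 9.1e-06). S100P had 369, 374 and 134 CPM against 41.5, 34.2, 26.8 and 19.7 CPM (log2FC 3.25 ± 0.57, adjusted p = 2.8e-04), without overlap. S100A9, a subunit of calprotectin, had 172, 84.5 and 47.7 CPM against 26.6, 34.7, 26.5 and 12.3 CPM (log2FC 2.02 ± 0.53, adjusted p = 0.021) and was not called without EGFhigh replicate 1 or EGFlow replicate 4 (adjusted p = 0.21 and 0.077). S100A13 had 243, 192 and 178 CPM against 114, 90.5, 92.6 and 121 CPM (log2FC 0.96 ± 0.24, adjusted p = 0.014) and was not called without EGFhigh replicate 1 or EGFlow replicate 2 (adjusted p = 0.087 and 0.059). Without both libraries numbered 1, 2 members of the list were called.

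Of the 7 called cornified envelope genes, 5 had a promoter in the table used here, and SPRR2E and CRCT1 were not examined for sequence. The AP-1 motif, TGACTCA or TGAGTCA on the other strand, is the site bound by dimers of the FOS and JUN families. Promoters were taken from RefSeq (GRCh38.p14) as 300 bases, from 250 before to 50 after the start of the gene, and were found for 10322 of the 15350 genes tested and for 424 DEGs. The motif stood in 5 of 5 promoters of called cornified envelope genes and in 8 of 23 promoters of the list (34.8%), against 23 of 227 higher DEGs (10.1%), 3 of 197 lower DEGs (1.52%), 3.26% of the promoters of genes tested and 4.92% of all 27305 promoters of the table. A match describes the letters only and does not show that a factor was bound. The stretches around the motif are printed for these 5 called genes, 5′ to 3′ on the strand of the gene, with the motif in capitals.
SPRR2A (chr1:153057687-153057725, minus strand, motif 197 bases before the start): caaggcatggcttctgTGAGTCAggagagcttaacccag
SPRR1B (chr1:153031046-153031084, plus strand, 141 bases before the start): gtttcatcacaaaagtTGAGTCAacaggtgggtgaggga
ECM1 (chr1:150508015-150508053, plus strand, 78 bases before the start): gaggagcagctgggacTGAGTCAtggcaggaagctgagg
SPRR3 (chr1:153001563-153001601, plus strand, 170 bases before the start): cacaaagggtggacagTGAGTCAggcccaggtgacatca
EMP1 (chr12:13196535-13196573, plus strand, 175 bases before the start): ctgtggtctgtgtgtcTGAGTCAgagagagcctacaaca
The flanks of the 5 motifs differ. The capitals were fixed by the search apart from the strand, and all 5 read TGAGTCA. The whole promoter is printed for SPRR1B, the most abundant called SPRR gene of the list, at chr1:153030953-153031252 on the plus strand.
SPRR1B: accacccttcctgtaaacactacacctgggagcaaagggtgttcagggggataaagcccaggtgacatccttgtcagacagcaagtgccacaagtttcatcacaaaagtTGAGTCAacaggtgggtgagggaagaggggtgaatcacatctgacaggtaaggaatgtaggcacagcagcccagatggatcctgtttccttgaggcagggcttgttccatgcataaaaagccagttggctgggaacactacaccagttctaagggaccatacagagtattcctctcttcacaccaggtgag

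Of 9 keratins of wounded and suprabasal epithelium tested, 3 were higher (33.3%) and none was lower, with a median log2FC of 0.21. KRT16, which keratinocytes induce on injury, had 407, 179 and 214 CPM in EGFhigh and 14.8, 9.02, 63.2 and 26.2 CPM in EGFlow, without overlap (log2FC 3.27 ± 0.48, adjusted p = 2.5e-05). KRT6A, its type II partner, had 346, 116 and 334 CPM against 6.57, 20.4, 11.3 and 126 CPM (log2FC 2.68 ± 0.59, adjusted p = 0.0042). EGFlow replicate 4 lay above the lowest EGFhigh library, and without it the log2FC of KRT6A was 4.37. KRT6A was not called without both libraries numbered 1 (adjusted p = 0.068), where KRT16 was the only DEG of the list. KRT17 had 44.9, 22.3 and 109 CPM against 10.7, 15.9, 26.8 and 20.3 CPM with overlap (log2FC 1.68 ± 0.48, adjusted p = 0.037) and was not called without EGFhigh replicate 4 or EGFlow replicate 1, 2 or 4 (adjusted p = 0.063 to 0.42), with a log2FC of 0.89 without EGFhigh replicate 4. Other fits called members of this list lower: KRT4 with the replicate block (adjusted p = 0.015), KRT80 without EGFhigh replicate 3 (log2FC -1.23, adjusted p = 0.033), and KRT4 and KRT23 without a filter on low counts. Reads of KRT6A, KRT16 and KRT17 can be shared with near-identical family members and pseudogenes. Of 9 basal and simple epithelial keratins, the pair KRT8 and KRT18, which form the filaments of simple epithelia, was higher and none was lower (22.2%, median log2FC 0.72). KRT8 had 5658, 2360 and 1870 CPM against 1530, 1082, 1477 and 1145 CPM (log2FC 1.33 ± 0.26, adjusted p = 0.0012), and KRT18 had 7995, 4491 and 2845 CPM against 3132, 1563, 1975 and 2327 CPM (log2FC 1.18 ± 0.24, adjusted p = 0.0017). EGFhigh replicate 1 had the highest level of both, and the doses overlapped for KRT18 but not for KRT8. Without that library KRT8 had a log2FC of 0.70 (adjusted p = 0.13) and KRT18 of 0.72 (adjusted p = 0.11). Without both libraries numbered 1, KRT18 stayed called and KRT8 was not (adjusted p = 0.12). In a fit of the 7 libraries alone, no basal or simple epithelial keratin was called, and 1 keratin of wounded and suprabasal epithelium was higher. KRT7, another simple epithelial keratin, was called lower without EGFhigh replicate 1 (log2FC -1.19, adjusted p = 0.013) and without both libraries numbered 1 (log2FC -1.34, adjusted p = 0.0054). KRT4, KRT7, KRT23 and KRT80 are named after their values were seen.

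The hemidesmosome anchors basal keratinocytes to the laminin that they secrete, with the integrin chains alpha 6 (ITGA6) and beta 4 (ITGB4) as receptor. Of 9 genes tested in this list, 4 were higher in EGFhigh (44.4%) and none was lower, with a median log2FC of 0.27. LAMA3 (chr18:23689443-23956222), a chain of the laminin, had 65.5, 116 and 124 CPM in EGFhigh and 38.3, 19.4, 22.9 and 27.5 CPM in EGFlow (log2FC 1.91 ± 0.34, adjusted p = 3.6e-04). LAMB3 (chr1:209614870-209652466) had 290.5, 279 and 354 CPM against 104, 80.9, 89.5 and 161 CPM (log2FC 1.5 ± 0.36, adjusted p = 0.010), and neither chain overlapped between the doses. LAMB3 was not called without EGFlow replicate 2 (adjusted p = 0.051). ITGB4 (chr17:75721328-75757818), the receptor chain, had 3123, 4357 and 4272 CPM against 1317, 778, 1320 and 1727 CPM (log2FC 1.61 ± 0.28, adjusted p = 2.2e-04), again without overlap. Its partner chain ITGA6 had 972, 731 and 959 CPM against 658, 806, 918 and 654 CPM with overlap and was not called (log2FC 0.23 ± 0.16, adjusted p = 0.55). The remaining members DST, CD151, PLEC and COL17A1 had log2FC between -0.10 and 0.27 and were not called. The 4 DEGs of the list were also called without both libraries numbered 1.

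**Figure D2:**
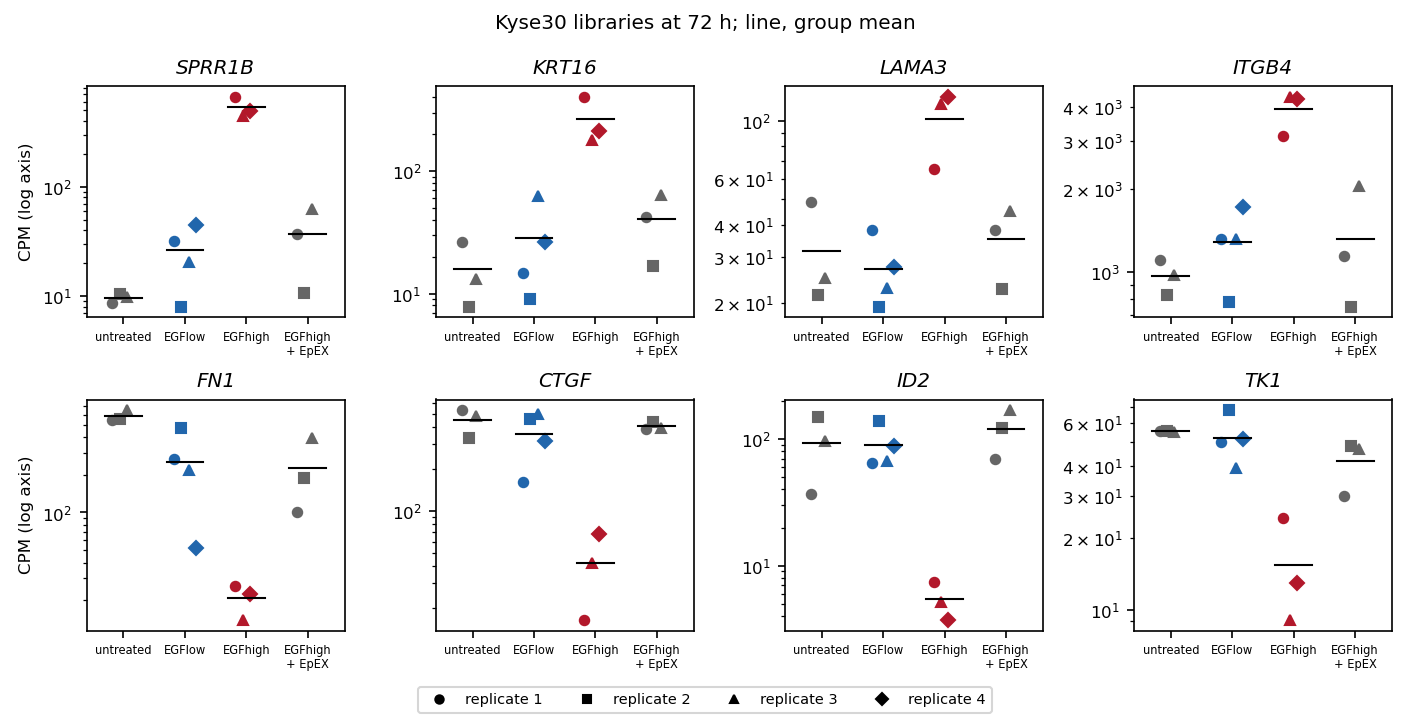
CPM on a log axis in each Kyse30 library at 72 h for 4 genes higher and 4 genes lower in EGFhigh (red) than in EGFlow (blue), with untreated and EGFhigh + EpEX libraries in grey. Symbols give the replicate number and lines the group mean. EGFhigh lies apart from the other 3 groups plotted in all 8 genes, and for ITGB4 its 3 libraries range from 3123 to 4357 CPM while the EGFlow libraries range from 778 to 1727 CPM.

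Other adhesion genes moved in both directions. Among 26 genes of other integrins and focal adhesions, 5 were higher (19.2%) and 2 lower (7.69%), with a median log2FC of 0.29. CD44, the receptor for hyaluronan, had 615, 701 and 841 CPM against 211, 192, 202 and 375 CPM (log2FC 1.55 ± 0.23, adjusted p = 2.5e-05). ITGA2, a chain of a collagen receptor, had 551, 447 and 551 CPM against 209.8, 257, 180.4 and 196 CPM (log2FC 1.29 ± 0.22, adjusted p = 2.2e-04). Neither gene overlapped between the doses. The laminin receptor chain ITGA3 had 222, 206 and 243 CPM against 120.3, 106, 134 and 109 CPM (log2FC 0.93 ± 0.21, adjusted p = 0.0059). The actin cross-linker ACTN1, at a log2FC of 0.73, was not called without EGFhigh replicate 1 (adjusted p = 0.11). Without EGFhigh replicate 1, or without both libraries numbered 1, 3 higher genes of the list were called. ACTN1, ITGA3 and CAV2 are named after their values were seen, to complete the count. The lower genes were CAV1 and CAV2, which coat caveolae, small invaginations of the cell membrane. CAV1 had 473, 270.3 and 414 CPM in EGFhigh and 1259, 1206, 1299 and 1133 CPM in EGFlow, with EGFlow in a narrow band and EGFhigh well under it (log2FC -1.67 ± 0.21, adjusted p = 2.0e-06). CAV2 had 228, 248 and 216 CPM against 421, 449, 522 and 326 CPM (log2FC -0.90 ± 0.18, adjusted p = 0.0012).

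Of 17 genes of desmosomes and adherens junctions, 3 were higher (17.6%) and none lower, with a median log2FC of 0.13. P-cadherin (CDH3) had 496, 623 and 533 CPM against 260.2, 273, 300.3 and 262 CPM (log2FC 1.01 ± 0.17, adjusted p = 2.4e-04). Plakoglobin (JUP), a linker in both kinds of junction, had 830.5, 929 and 882 CPM against 483, 420.1, 581 and 412 CPM (log2FC 0.89 ± 0.21, adjusted p = 0.0067). The third was DSG2 (log2FC 0.62), which was not called without EGFhigh replicate 1, 3 or 4 or EGFlow replicate 2, 3 or 4 (adjusted p = 0.059 to 0.22). E-cadherin itself was not called (log2FC 0.42 ± 0.41, adjusted p = 0.71), and without EGFhigh replicate 3 its log2FC was -0.08.

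In the urokinase system and its serpin inhibitors, which control proteolysis at the cell surface, 2 of 14 genes tested were higher (14.3%) and none was lower, with a median log2FC of 0.86. SERPINE2, an inhibitor of thrombin and urokinase, had 211, 124 and 268 CPM against 37.2, 16.6, 37.8 and 55.2 CPM (log2FC 2.45 ± 0.45, adjusted p = 5.6e-04). SERPINB1, an inhibitor of neutrophil proteases, had 114, 56.9 and 60.0 CPM against 27.2, 14.1, 31.6 and 21.6 CPM (log2FC 1.71 ± 0.33, adjusted p = 7.7e-04). Both were free of overlap. PLAU (log2FC 1.45 ± 0.93, adjusted p = 0.49) and its receptor PLAUR (log2FC 1.83 ± 0.67, adjusted p = 0.13) were not called, and both were far lower in the libraries numbered 1 than in the others of their dose. Of 13 matrix metalloproteinases and inhibitors, TIMP2 was higher and TIMP3 lower (7.69% each, median log2FC 0.50). TIMP3 had 34.4, 78.6 and 47.1 CPM against 433, 352, 316 and 54 CPM (log2FC -2.44 ± 0.51, adjusted p = 0.0023), with EGFlow replicate 4 inside the range of EGFhigh, and it was not called without both libraries numbered 1 (adjusted p = 0.074). TIMP2 (log2FC 0.83) was not called without EGFhigh replicate 1 or 3 or EGFlow replicate 2, 3 or 4 (adjusted p = 0.071 to 0.34), and without EGFhigh replicate 3 its log2FC was 0.55. MMP1, a collagenase, had 9.33, 4.64 and 38.7 CPM against 0.644, 0.889, 3.95 and 6.99 CPM and was not called (log2FC 2.5 ± 0.80, adjusted p = 0.073), though it was without EGFhigh replicate 3 (adjusted p = 0.049) or EGFlow replicate 4 (adjusted p = 0.030), and without EGFhigh replicate 4 its log2FC was 1.18 (adjusted p = 0.58).

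The lists of DNA replication and mitosis held lower DEGs and no higher ones. Of 60 genes of DNA replication, 13 were lower (21.7%) and none higher, with a median log2FC of -0.78 and a negative log2FC in 58. Of 79 genes of mitosis, 20 were lower (25.3%) and none higher, with a median log2FC of -0.90 and a negative log2FC in 79 of 79. The summed level of the mitosis list was 1665 to 2684 CPM in EGFhigh and 2741 to 4978 CPM in EGFlow, without overlap, whereas that of the replication list was 1393 to 2212 CPM against 2210 to 3102 CPM. In a bulk sample, fewer cells in a phase of the cycle and less RNA per cell cannot be told apart.

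Among the replication genes, TK1 (thymidine kinase, which salvages thymidine for DNA synthesis) had 24.3, 9.09 and 13 CPM in EGFhigh and 49.9, 68.1, 39.2 and 51.6 CPM in EGFlow. The doses did not overlap, and TK1 was called in each fit that left out 1 library (log2FC -1.75 ± 0.25, adjusted p = 1.8e-05). MCM2, a subunit of the replicative helicase, had 3.97, 31 and 24.6 CPM against 11.6, 137, 95.7 and 82.5 CPM (log2FC -2.05 ± 0.53, adjusted p = 0.018). The libraries numbered 1 were the lowest of their dose, the doses overlapped, and MCM2 was not called without EGFhigh replicate 1 or EGFlow replicate 2 (adjusted p = 0.13 and 0.11). PRIM1, a primase subunit, had 1.05, 3.21 and 4.0 CPM against 5.29, 9.65, 11 and 9.45 CPM (log2FC -1.69 ± 0.50, adjusted p = 0.046) and was called neither without EGFhigh replicate 1 or 3 or EGFlow replicate 2, 3 or 4 (adjusted p = 0.076 to 0.25) nor with the replicate block (adjusted p = 0.058). CDC45, a partner of the helicase, had 3.85, 10.2 and 6.0 CPM against 8.77, 21.5, 23.7 and 26.6 CPM with overlap (log2FC -1.61 ± 0.47, adjusted p = 0.042) and was not called without EGFhigh replicate 1 or 4 or EGFlow replicate 2, 3 or 4 (adjusted p = 0.087 to 0.21).

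Among the mitosis genes, KIF23, a kinesin of the central spindle needed in cytokinesis, had 8.86, 8.2 and 8.42 CPM against 25.8, 31.9, 24.8 and 20.1 CPM. Both groups were tight and apart (log2FC -1.59 ± 0.26, adjusted p = 1.3e-04). CENPF, a kinetochore protein that rises in G2, had 68.8, 38.9 and 41 CPM against 174, 214, 67.7 and 126 CPM (log2FC -1.55 ± 0.32, adjusted p = 0.0020), where the lowest EGFlow library, replicate 3, lay just under the highest EGFhigh library. BUB1B, a kinase of the spindle checkpoint, had 1.98, 4.46 and 4.14 CPM against 9.93, 13.5, 6.49 and 15.2 CPM (log2FC -1.71 ± 0.38, adjusted p = 0.0051) and was not called without EGFhigh replicate 1 (adjusted p = 0.069). DLGAP5, a spindle protein, had 3.62, 0.713 and 8.71 CPM against 10.6, 16.1, 10.4 and 14.8 CPM (log2FC -1.56 ± 0.40, adjusted p = 0.016), was not called without EGFhigh replicate 1 or 3 or EGFlow replicate 2 (adjusted p = 0.070 to 0.14) and had a log2FC of -2.49 without EGFhigh replicate 4. Cyclin B1 (CCNB1) had 22.3, 15 and 17.3 CPM against 41.9, 39, 25.4 and 31.8 CPM (log2FC -0.93 ± 0.25, adjusted p = 0.024) and was not called without EGFhigh replicate 3 or 4 or EGFlow replicate 1 or 2 (adjusted p = 0.083 to 0.15). The proliferation marker MKI67 had 86.9, 17.6 and 39 CPM against 138, 148, 49.7 and 92 CPM and was not called (log2FC -1.16 ± 0.38, adjusted p = 0.084), but was without EGFhigh replicate 1 (adjusted p = 0.0068) or EGFlow replicate 3 (adjusted p = 0.043).

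The counts of both lists moved with single libraries. Without EGFlow replicate 2, which had the highest level of KIF23, TK1 and MCM2, 2 replication and 8 mitosis genes were called. Without EGFhigh replicate 3 the counts were 4 and 7, without EGFhigh replicate 4 they were 4 and 12, without EGFhigh replicate 1 they were 16 and 30, and in a fit of these 7 libraries alone 4 and 3. Without EGFlow replicate 4, 8 replication genes were called. Without both libraries numbered 1, 12 replication and 25 mitosis genes were called, and no fit called a member of either list higher. Of 32 CDK inhibitors, D cyclins and p53 targets, SFN (14-3-3 sigma) was higher and PLK2 lower (3.12% each, median log2FC 0.01). Over all genes tested the shares were 2.03% and 1.71%. SFN (log2FC 1.23) was not called without EGFhigh replicate 1 or 4 or EGFlow replicate 2 (adjusted p = 0.060 to 0.098), and PLK2 (log2FC -0.98) was not called without EGFhigh replicate 1 or 3 or EGFlow replicate 1, 3 or 4 (adjusted p = 0.060 to 0.25). CDKN1A (p21) had 218, 240.4 and 302 CPM against 114, 64.5, 140.0 and 190.5 CPM (log2FC 1.00 ± 0.43, adjusted p = 0.23), and cyclin D1 (CCND1) had 578, 367 and 355 CPM against 516, 338, 317 and 302 CPM (log2FC 0.23 ± 0.20, adjusted p = 0.66); neither was called.

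Promoters of the cell cycle genes carried other letters than those of the envelope genes. The CHR element, TTTGAA on either strand, is bound by the MuvB complexes that time late cell cycle genes. It stood in 45 of 67 mitosis promoters (67.2%) and in 14 of the 17 called members with a promoter (82.4%), against 9.66% of the genes tested, 10.1% of the higher and 17.8% of the lower DEGs and 15.4% of the whole table. The CCAAT box (CCAAT on either strand) stood in 77.6% of the mitosis promoters and 36.7% of those of genes tested. The E2F motif, TTTCGCGC or TTTGGCGC on either strand, stood in 13 of 51 replication promoters (25.5%) and in 4 of their 12 called members, against 2.0% of the genes tested and 1.18% of the table. AP-1 was in none of the 67 mitosis and 51 replication promoters. Of the other motifs searched, the CArG box of serum response factor stood in 1.76% of the higher and 2.03% of the lower DEGs and 1.07% of the genes tested, and the TEAD motif (GGAATG on either strand) in 11.5, 10.7 and 11%, but in 10 of 23 cornified envelope promoters (43.5%) and 2 of the 5 called ones. These stretches show CHR in mitosis genes, in capitals, on the strand of the gene.
KIF23 (chr15:69414278-69414315, plus strand, 55 bases before the start): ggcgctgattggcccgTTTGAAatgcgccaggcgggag
BUB1B (chr15:40161030-40161067, plus strand, 23 bases before the start): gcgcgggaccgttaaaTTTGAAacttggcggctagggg
DLGAP5 (chr14:55191702-55191739, minus strand, 138 bases before the start): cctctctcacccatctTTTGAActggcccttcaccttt
CENPF (chr1:214603219-214603244, plus strand, 41 bases after the start): tggcggctgcgggcagTTTGAAttag
The E2F motif is shown in capitals for helicase genes, in MCM2 as overlapping matches on both strands.
MCM2 (chr3:127598397-127598436, plus strand): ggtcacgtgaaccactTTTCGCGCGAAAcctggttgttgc
MCM7 (chr7:100101383-100101422, minus strand): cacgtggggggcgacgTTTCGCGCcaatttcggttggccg
GINS1 (chr20:25407662-25407701, plus strand): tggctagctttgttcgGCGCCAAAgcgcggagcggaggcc
MCM7 had 205, 68.3 and 81.2 CPM against 219, 236, 184 and 214 CPM (log2FC -0.85 ± 0.25, adjusted p = 0.045), was not called without EGFhigh replicate 3 or 4 or EGFlow replicate 1, 2, 3 or 4 (adjusted p = 0.062 to 0.34), and had a log2FC of -1.5 without EGFhigh replicate 1 and of -0.56 without EGFhigh replicate 3. GINS1 had 7.12, 1.96 and 4.85 CPM against 10.2, 15.5, 15.2 and 16.7 CPM (log2FC -1.60 ± 0.41, adjusted p = 0.017) and was not called without EGFhigh replicate 3 or 4 or EGFlow replicate 2 (adjusted p = 0.057 to 0.15). For KIF23, which was called in each fit that left out 1 library, the whole promoter is printed (chr15:69414099-69414398, plus strand).
KIF23: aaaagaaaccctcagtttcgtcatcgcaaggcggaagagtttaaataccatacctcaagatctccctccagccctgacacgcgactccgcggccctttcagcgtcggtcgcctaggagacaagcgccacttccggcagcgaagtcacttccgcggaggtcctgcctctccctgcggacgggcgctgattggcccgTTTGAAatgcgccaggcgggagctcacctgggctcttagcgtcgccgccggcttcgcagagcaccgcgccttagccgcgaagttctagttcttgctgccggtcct

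**Figure D3:**
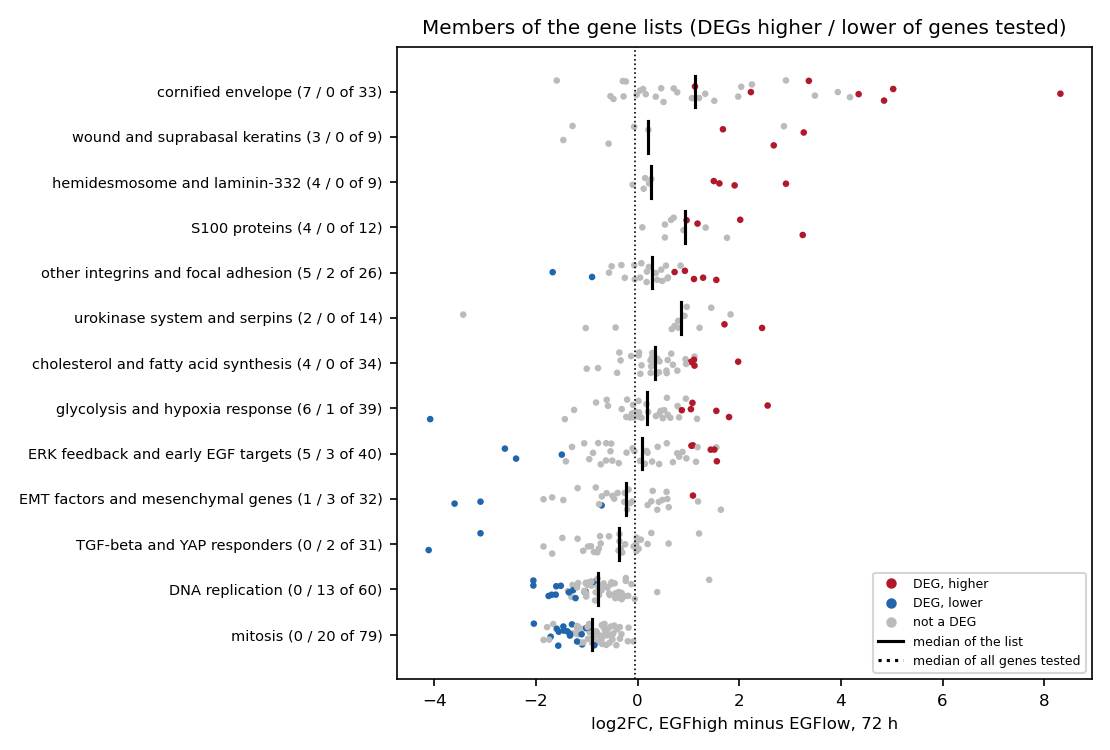
Log2FC of EGFhigh minus EGFlow at 72 h for the tested members of 13 gene lists, with DEGs in red (higher) and blue (lower) and other members in grey. Solid lines give the median of a list and the dotted line the median of all genes tested. Mitosis genes all lie left of 0, while called members of the cornified envelope, keratin, hemidesmosome and S100 lists lie to the right.

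Of 23 genes of the EGFR family, its ligands and the proteases that shed them, 1 was higher (4.35%) and 2 were lower (8.70%). Over all genes tested the shares were 2.03% and 1.71%, and the median log2FC of the list was 0.22. EGFR itself had 1732, 2347 and 1931 CPM in EGFhigh and 3037, 3339, 3962 and 2761 CPM in EGFlow, without overlap (log2FC -0.71 ± 0.17, adjusted p = 0.011). It was not called without EGFhigh replicate 1 or 4 or EGFlow replicate 3 (adjusted p = 0.057 to 0.095). The ligand NRG1, which acts on ERBB3 and ERBB4, had 1.28, 0.178 and 2.43 CPM against 9.02, 17.9, 5.08 and 15.2 CPM (log2FC -3.15 ± 0.63, adjusted p = 0.0014). The adaptor SHC1, which links the receptor to RAS, was higher (log2FC 0.69) but not called without EGFhigh replicate 3 or 4 or EGFlow replicate 1, 2 or 4 (adjusted p = 0.082 to 0.15). AREG, an EGFR ligand, had 776, 394 and 877 CPM against 269, 205, 198 and 564 CPM and was not called (log2FC 1.14 ± 0.41, adjusted p = 0.12), but was with the replicate block (adjusted p = 0.027) and without EGFlow replicate 4 (adjusted p = 0.0245). Without both libraries numbered 1, NRG1 was the only DEG of the list.

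Of 40 genes of ERK feedback and the early EGF response, 5 were higher (12.5%) and 3 were lower (7.50%), with a median log2FC of 0.10. The lower ones were transcription factors that EGF induces early. FOSB had 146, 71 and 68.9 CPM in EGFhigh and 716, 583, 426 and 268 CPM in EGFlow (log2FC -2.39 ± 0.41, adjusted p = 2.3e-04). FOS had 46.4, 91.3 and 94.8 CPM against 242, 571, 738 and 345 CPM (log2FC -2.61 ± 0.62, adjusted p = 0.0089) and was not called without EGFhigh replicate 1 (adjusted p = 0.065). ATF3 had 102, 196 and 215 CPM against 525, 536, 434 and 424 CPM (log2FC -1.49 ± 0.41, adjusted p = 0.030) and was not called without EGFhigh replicate 1 or 3 or EGFlow replicate 1 or 2 (adjusted p = 0.053 to 0.17). None of the 3 overlapped between the doses. The higher ones included the chromatin proteins HMGA1, with 2468, 2589 and 1950 CPM against 964, 899, 981 and 604 CPM (log2FC 1.44 ± 0.20, adjusted p = 9.5e-06), and HMGA2 (log2FC 1.06, adjusted p = 0.0072), which was not called without EGFhigh replicate 4 (adjusted p = 0.05004). DUSP4, an ERK phosphatase, had 145, 174 and 204 CPM against 76, 84.2, 77.9 and 88.6 CPM (log2FC 1.09 ± 0.28, adjusted p = 0.016) and was not called without EGFhigh replicate 4 (adjusted p = 0.078). IER3 had a log2FC of 1.51 and was not called without EGFhigh replicate 4 or EGFlow replicate 1 or 2 (adjusted p = 0.051 to 0.098), and PHLDA2 had one of 1.56 and was not called without EGFhigh replicate 1 (adjusted p = 0.11). HMGA1, HMGA2, DUSP4 and ATF3 are named after their values were seen, to complete the counts. Without both libraries numbered 1, 2 genes of the list were higher and 1 was lower, without EGFhigh replicate 1 the counts were 4 and 1, and without EGFhigh replicate 4 they were 2 and 4. The feedback genes DUSP6 (log2FC -0.53 ± 0.30, adjusted p = 0.40) and SPRY4 (log2FC 1.55 ± 0.54, adjusted p = 0.11) and the target MYC (log2FC -0.62 ± 0.72, adjusted p = 0.77) were not called.

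Of 32 EMT factors and mesenchymal genes, 1 was higher (3.12%) and 3 were lower (9.38%), beside 2.03% and 1.71% of all genes tested. The median log2FC of the list was -0.23. Fibronectin (FN1), a matrix glycoprotein and a common marker of EMT, had 25.9, 13.9 and 22.6 CPM in EGFhigh and 268, 474, 216 and 51.8 CPM in EGFlow. The EGFhigh libraries lay under all EGFlow libraries, of which replicate 4 was far below the others (log2FC -3.60 ± 0.64, adjusted p = 3.0e-04). TGFBI, a matrix protein, had 83.2, 81.8 and 83.1 CPM against 171, 121, 109.8 and 138 CPM (log2FC -0.71 ± 0.20, adjusted p = 0.038) and was not called without EGFhigh replicate 1, 3 or 4 or EGFlow replicate 1, 2 or 4 (adjusted p = 0.065 to 0.15). TWIST2, an EMT transcription factor, had 27.9, 21 and 19.8 CPM against 12.6, 8.89, 15 and 7.12 CPM (log2FC 1.09 ± 0.33, adjusted p = 0.048) and was not called without EGFhigh replicate 1, 3 or 4 or EGFlow replicate 1, 2 or 4 (adjusted p = 0.05044 to 0.19). Vimentin (VIM) had 61.1, 35 and 70.7 CPM against 31.2, 31.8, 43.8 and 42 CPM (log2FC 0.59 ± 0.42, adjusted p = 0.55), and SNAI2 had 5.6, 12.3 and 40.8 CPM against 16, 17, 31.1 and 39 CPM (log2FC -0.39 ± 0.48, adjusted p = 0.78, and 0.07 without EGFhigh replicate 1); neither was called.

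The third lower gene of that list was CTGF (CCN2), a secreted matricellular protein induced by TGF-beta and by the YAP coactivator. CTGF had 16.3, 42.3 and 68.1 CPM in EGFhigh and 161, 457, 499.6 and 317 CPM in EGFlow (log2FC -3.09 ± 0.58, adjusted p = 6.7e-04), without overlap. Of 31 responders to TGF-beta and YAP, 2 were lower (6.45%), none was higher, and 25 had a negative log2FC (median -0.37). Blocking on the replicate number gave 4 lower and 1 higher, and without EGFlow replicate 1 also 4 were lower. The second was ANKRD1, a YAP target, with 2.33, 0.178 and 1.57 CPM against 11.1, 54.7, 24.8 and 10.0 CPM (log2FC -4.11 ± 0.85, adjusted p = 0.0021). ID2 and ID4, which dimerise with basic helix-loop-helix factors and keep them off DNA, were among the lowest genes of the comparison. ID2 had 7.46, 5.17 and 3.71 CPM against 64.3, 138, 67.2 and 88.2 CPM (log2FC -4.02 ± 0.61, adjusted p = 3.6e-05). ID4 had 2.22, 1.78 and 0.856 CPM against 26.7, 58.5, 51.1 and 18.1 CPM (log2FC -4.54 ± 0.57, adjusted p = 1.3e-06). Both had every EGFhigh library more than 8 times below every EGFlow library.

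In energy metabolism, 6 of 39 genes of glycolysis and the hypoxia response were higher (15.4%) and 1 was lower (2.56%), with a median log2FC of 0.18. DDIT4, an inhibitor of mTORC1, had 372, 295 and 286 CPM against 76.8, 89.7, 72 and 126 CPM (log2FC 1.8 ± 0.46, adjusted p = 0.016) and was not called without EGFhigh replicate 1 (adjusted p = 0.055). NDRG1 (log2FC 1.55) was not called without EGFhigh replicate 1 or 4 or EGFlow replicate 2 or 3 (adjusted p = 0.053 to 0.11). The secreted lipase inhibitor ANGPTL4 (log2FC 2.56) was not called without EGFhigh replicate 1, 3 or 4 or EGFlow replicate 1, 2 or 3 (adjusted p = 0.072 to 0.15). The glycolytic enzyme LDHA, at a log2FC of 1.05, was called neither without EGFhigh replicate 1 or 3 or EGFlow replicate 1, 2 or 3 (adjusted p = 0.074 to 0.21) nor with the replicate block (adjusted p = 0.052). PKM, at a log2FC of 0.87, was not called without EGFhigh replicate 1 or 4 or EGFlow replicate 1, 2 or 3 (adjusted p = 0.055 to 0.21). PFKFB2, at a log2FC of 1.08, was not called without EGFhigh replicate 1, 3 or 4 or EGFlow replicate 2 or 3 (adjusted p = 0.052 to 0.13), and both it and PKM are named after their values were seen. The glucose transporter SLC2A3 had 0.35, 0.178 and 0.856 CPM against 5.16, 20.3, 5.08 and 2.06 CPM (log2FC -4.08 ± 0.95, adjusted p = 0.0072) and was not called without EGFhigh replicate 3 or EGFlow replicate 2 (adjusted p = 0.051 and 0.088). No gene of the list was called higher without EGFhigh replicate 1, 1 was without EGFlow replicate 2 or 3 or without both libraries numbered 1, 2 without EGFhigh replicate 4, 3 without EGFlow replicate 1, and 4 without EGFhigh replicate 3.

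In cholesterol and fatty acid synthesis, 4 of 34 genes were higher (11.8%), none was lower and 28 had a positive log2FC (median 0.34). ELOVL6, which elongates palmitate, had 67.3, 48.3 and 33.7 CPM against 13.5, 16.4, 9.03 and 11.2 CPM (log2FC 1.98 ± 0.40, adjusted p = 0.0018), without overlap. SCD, the desaturase of stearate, had 2337, 4027 and 2908 CPM against 1552, 745, 1237 and 2158 CPM (log2FC 1.12 ± 0.29, adjusted p = 0.019) and was not called without EGFhigh replicate 3 or EGFlow replicate 2 (adjusted p = 0.15 and 0.10). MSMO1, a sterol oxidase, had 132, 190.2 and 118 CPM against 58.4, 61.8, 75.1 and 76 CPM (log2FC 1.11 ± 0.24, adjusted p = 0.0041) and was not called without EGFhigh replicate 3 (adjusted p = 0.064). INSIG1 (log2FC 1.04) was not called without EGFhigh replicate 1 or 3 or EGFlow replicate 2, 3 or 4 (adjusted p = 0.064 to 0.18). In fits that left libraries out, the count of higher genes ranged from 2 without EGFlow replicate 2 to 8 without EGFlow replicate 1. It was 7 without EGFhigh replicate 4 and 3 without both libraries numbered 1. The lower count was 1 without EGFhigh replicate 1, alone or together with EGFlow replicate 1. Without a filter on low counts, 9 were higher and 1 was lower, and in a fit of the 7 libraries alone 2 were higher.

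Of 20 cytokines and chemokines, 1 was higher and 1 lower (5.00% each, median log2FC 0.21). IL1RN, the antagonist of the interleukin 1 receptor, had 144, 82.9 and 54.4 CPM against 23.5, 11.9, 6.49 and 7.67 CPM (log2FC 2.90 ± 0.53, adjusted p = 5.3e-04), without overlap. PTGS2 (cyclooxygenase 2) had 75.9, 77.9 and 67.5 CPM against 256, 270.4, 244 and 153 CPM (log2FC -1.65 ± 0.47, adjusted p = 0.038) and was not called without EGFhigh replicate 1, 3 or 4 or EGFlow replicate 1, 2 or 3 (adjusted p = 0.066 to 0.12). Of 42 interferon-stimulated genes, only the exonuclease ISG20 was called, higher at a log2FC of 2.07 (2.38%, median of the list -0.11), and not without EGFlow replicate 2 (adjusted p = 0.053). None of 17 genes of MHC class I and antigen presentation was called in the main edgeR fit (median log2FC 0.20). B2M, the most abundant, had 582, 1031 and 859 CPM against 646, 800.4, 728 and 624 CPM (log2FC 0.24 ± 0.26, adjusted p = 0.75). By unadjusted p below 0.05, 1 member had a positive log2FC (HLA-E, 0.38) and 2 had a negative one (ERAP1, -1.20, and ERAP2, -0.89), of which the latter trim peptides for MHC class I. ERAP1 was called lower with the replicate block (adjusted p = 0.042), with the filter at a mean of 5 CPM and with DESeq2, and ERAP2 in the fit of the 72 h libraries only. All 3 are named after their values were seen. Of 13 complement genes, CD59, which blocks the membrane attack complex, was higher with 367, 228 and 341 CPM against 140.4, 122, 142 and 178 CPM (log2FC 1.10 ± 0.19, adjusted p = 1.6e-04), and C5 was lower with 0, 0.535 and 0.285 CPM against 8.51, 9.65, 9.6 and 8.36 CPM (log2FC -5.09 ± 0.81, adjusted p = 7.4e-05), 7.69% each (median log2FC 0.27). Of 27 squamous lineage transcription factors, HES2 was higher (3.70%, median log2FC 0.18; log2FC 0.93 ± 0.28, adjusted p = 0.049), but it was called neither without EGFhigh replicate 3 or 4 or EGFlow replicate 1, 2 or 3 (adjusted p = 0.066 to 0.21) nor with the replicate block (adjusted p = 0.052). Over all genes tested, 2.03% were higher and 1.71% lower, and in the main fit no list of this paragraph had more than 1 call in either direction.

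Lists of the study itself were chosen on libraries that include these, so their direction is not independent evidence. Of the 171 genes of its EGFR-mediated EMT signature, 53 were higher (31.0%) and 43 lower (25.1%), with a median log2FC of -0.60. Of the 5 genes of its risk score, ITGB4 and DDIT4 were higher (40.0%, median log2FC 0.94). DDIT4 was not called without EGFhigh replicate 1, alone or together with EGFlow replicate 1. TIMP1 had 190.5, 181 and 140.2 CPM against 116, 71.2, 102 and 133 CPM and was not called (log2FC 0.69 ± 0.22, adjusted p = 0.070), but was with the replicate block (adjusted p = 0.041) and without EGFlow replicate 4 (adjusted p = 0.039). FADD had 276, 198 and 214 CPM against 166, 134, 176 and 179 CPM (log2FC 0.49 ± 0.16, adjusted p = 0.081) and NCEH1 29, 19.3 and 17.8 CPM against 13, 8.25, 11 and 13.8 CPM (log2FC 0.94 ± 0.31, adjusted p = 0.089), neither of them called. In all 5 genes every EGFhigh library was above every EGFlow library, beside the 12.4% of all genes tested whose doses did not overlap in either direction. Of the published partial EMT signature, 13 of 87 genes were higher (14.9%) and 5 lower (5.75%), with a median log2FC of 0.21, and of the EMT hallmark gene set, 12 of 152 were higher (7.89%) and 11 lower (7.24%), with a median of 0.02. With the replicate block the lower genes of these lists were 11 and 18. Without both libraries numbered 1, 7 partial EMT genes were higher and 3 lower, and 7 were higher without EGFhigh replicate 4 or EGFlow replicate 2. For the EGFR-mediated EMT signature the counts without both libraries numbered 1 were 37 higher and 29 lower, and the lower count was 23 without EGFhigh replicate 3, 28 without EGFhigh replicate 4 and 24 without EGFlow replicate 2. In the same order of libraries, 7, 7 and 6 genes of the EMT hallmark were lower.

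The genes with the largest differences and at least 5 CPM had diverse roles, and some of them are members of the lists above. PDE2A, MYH16 and MSN belong to the EGFR-mediated EMT signature, which the study chose on libraries that include these. PDE2A, a phosphodiesterase of cyclic nucleotides, had 26, 5.35 and 17.1 CPM in EGFhigh and 0.129, 0, 0.282 and 0.137 CPM in EGFlow, where it was below 3 counts in each library (log2FC 6.90 ± 1.05, adjusted p = 3.6e-05). MYH16, the remnant of a jaw muscle myosin gene, had 19, 9.27 and 31.3 CPM against 0, 1.4, 0.565 and 1.23 CPM (log2FC 4.57 ± 0.85, adjusted p = 6.2e-04). FAM83A, which binds RAF in EGFR signalling, had 102, 18.9 and 54.7 CPM against 5.16, 4.57, 0.565 and 5.89 CPM (log2FC 3.80 ± 0.63, adjusted p = 1.3e-04). C15orf48, a mitochondrial protein, had 32.4, 164 and 43.8 CPM against 4.0, 3.3, 20.9 and 3.83 CPM (log2FC 3.39 ± 0.74, adjusted p = 0.0039) and was not called without EGFhigh replicate 3 (adjusted p = 0.10). ARNT2, a basic helix-loop-helix factor, had 22.4, 15 and 3.85 CPM against 0.516, 0.381, 1.41 and 3.29 CPM (log2FC 3.29 ± 0.96, adjusted p = 0.041), and was called neither without EGFhigh replicate 1 or 3 or EGFlow replicate 1, 2 or 3 (adjusted p = 0.084 to 0.18) nor with the replicate block (adjusted p = 0.054). Moesin (MSN), a linker of membrane and actin, was high only in EGFhigh replicate 4, with 10.3, 2.5 and 74.5 CPM against 2.71, 2.03, 2.26 and 4.25 CPM (log2FC 3.35 ± 0.74, adjusted p = 0.0041), and without that library its log2FC was 1.19 (adjusted p = 0.47).

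On the lower side, CPVL, a carboxypeptidase, had 0, 0 and 0.856 CPM in EGFhigh and 10.2, 22.4, 19.5 and 9.86 CPM in EGFlow (log2FC -5.66 ± 0.81, adjusted p = 1.6e-05). Without EGFhigh replicate 4, the only EGFhigh library with a count, CPVL stayed called, and its fitted log2FC of -9.64 against libraries at 0 is no measure of size. PLXDC2, a transmembrane protein, had 0.117, 0.535 and 0.285 CPM against 17.4, 18.5, 17.2 and 1.1 CPM (log2FC -5.45 ± 1.16, adjusted p = 0.0028), with EGFlow replicate 4 far under the other 3. VIT had 0.35, 1.07 and 0.856 CPM against 14.3, 26.5, 22 and 16.4 CPM (log2FC -4.73 ± 0.82, adjusted p = 2.4e-04). PPP2R2B, a regulatory subunit of protein phosphatase 2A, had 2.8, 1.6 and 1.14 CPM against 32, 80.1, 50.2 and 8.9 CPM (log2FC -4.49 ± 0.84, adjusted p = 6.7e-04). SEMA3D, a secreted guidance factor, had 6.3, 6.6 and 4.0 CPM against 62.5, 106, 75.4 and 36.6 CPM, with every EGFlow library at least 5 times above every EGFhigh library (log2FC -3.64 ± 0.37, adjusted p = 7.1e-09). FAT3, a giant cadherin, had 2.45, 1.96 and 0.714 CPM against 28.5, 34.2, 14.1 and 6.99 CPM (log2FC -3.60 ± 0.60, adjusted p = 1.3e-04). The gap junction protein GJA1 had 0.816, 1.78 and 2.85 CPM against 3.87, 15.4, 12.1 and 24.2 CPM (log2FC -2.94 ± 0.67, adjusted p = 0.0061) and was not called without EGFhigh replicate 1 (adjusted p = 0.056). The axonemal dynein gene DNAH11 had 0, 1.78 and 0.428 CPM against 21, 12.3, 3.67 and 3.01 CPM (log2FC -3.83 ± 1.09, adjusted p = 0.035), and was called neither without EGFhigh replicate 1 or 4 or EGFlow replicate 1 or 2 (adjusted p = 0.088 to 0.15) nor with the replicate block (adjusted p = 0.058).

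Levels of the other 72 h groups are given beside both doses as values only, since comparisons that share libraries are not independent. The cornified envelope list summed to 1848 to 2635 CPM in EGFhigh, 812 to 982 CPM in EGFlow, 755 to 1208 CPM in untreated and 806 to 1477 CPM in EGFhigh + EpEX libraries. The hemidesmosome and laminin list summed to 8005 to 11940, 4002 to 5460, 4187 to 4881 and 3986 to 6993 CPM in the same order. For the mitosis list, the sums were 1665 to 2684, 2741 to 4978, 4020 to 5266 and 3068 to 4582 CPM. In all 3 lists EGFhigh was the group apart, and EGFlow overlapped untreated and EGFhigh + EpEX libraries. SPRR1B had 9.62 ± 0.983 CPM (SD, n = 3) in untreated and 36.8 ± 26.1 CPM (SD, n = 3) in EGFhigh + EpEX libraries. In the same order, the values were 969 ± 139 and 1318 ± 672 CPM for ITGB4, for FN1 582 ± 61.9 and 227 ± 151 CPM, and for ID2 93.7 ± 55.8 and 120.1 ± 49.9 CPM (SD, n = 3 each).

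At 6 h, the same difference in dose gave no DEG among 15350 genes (0%) by edgeR, and 435 genes had an unadjusted p below 0.05. DESeq2 also called 0, and edgeR without a filter on low counts called 7. Over the genes tested, the log2FC at 72 h and at 6 h, which come from different libraries (4 of each dose at 6 h), had a Pearson correlation of 0.02 and a Spearman correlation of 0.05, given as a description since genes are not independent. The DEGs of 72 h had a median log2FC at 6 h of 0.02 (higher DEGs) and -0.07 (lower DEGs), and 172 of 311 and 158 of 262 pointed the same way. Of those that did, 1 higher and 8 lower DEGs had an unadjusted p under 0.05 at 6 h.

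The difference of the dose effects was tested itself. For 117 genes (0.762%) the dose effect at 72 h differed from that at 6 h, with 57 higher and 60 lower at 72 h, and 1482 genes had an unadjusted p under 0.05. Of the 117, 111 were also DEGs at 72 h, all in the same direction. Blocking on the replicate number raised the count to 200, without both libraries numbered 1 at 72 h it was 69, without EGFlow 72 h replicate 2 it was 49, and without EGFhigh 6 h replicate 1 or 3 it was 65. SPRR1B was at 102 ± 14.2 CPM in EGFlow and 87 ± 21.9 CPM in EGFhigh at 6 h (SD, n = 4), and its dose effects differed by 4.57 ± 0.53, adjusted p = 1.1e-06, on the log2 scale of 72 h minus 6 h. ITGB4 was at 933 ± 167 and 964 ± 344 CPM at 6 h (SD, n = 4), with a difference of 1.56 ± 0.38, adjusted p = 0.031. On the lower side, CTGF was at 65.7 ± 35.3 and 102 ± 67.5 CPM at 6 h (SD, n = 4), with a difference of -3.72 ± 0.74, adjusted p = 0.0060, and ID2 at 4.53 ± 2.83 and 6.67 ± 1.72 CPM (SD, n = 4), with -4.57 ± 0.81, adjusted p = 0.0012. For FOSB, at 28.8 ± 7.27 and 19.2 ± 11.2 CPM at 6 h (SD, n = 4), the difference was not called (-1.76 ± 0.55, adjusted p = 0.15). Among the lists, 3 of 33 cornified envelope, 2 of 9 hemidesmosome, 2 of 12 S100, 1 of 60 replication and 3 of 79 mitosis genes were called in the same direction as at 72 h, beside 0.762% of all genes tested. Other lists held such genes too. Of 26 genes of other integrins and focal adhesions, 2 were higher and 1 lower, and of 32 EMT factors and mesenchymal genes 2 were lower. The EGFR-mediated EMT signature had 11 higher and 12 lower of 171, and the EMT hallmark 6 and 3 of 152.

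**Figure D4:**
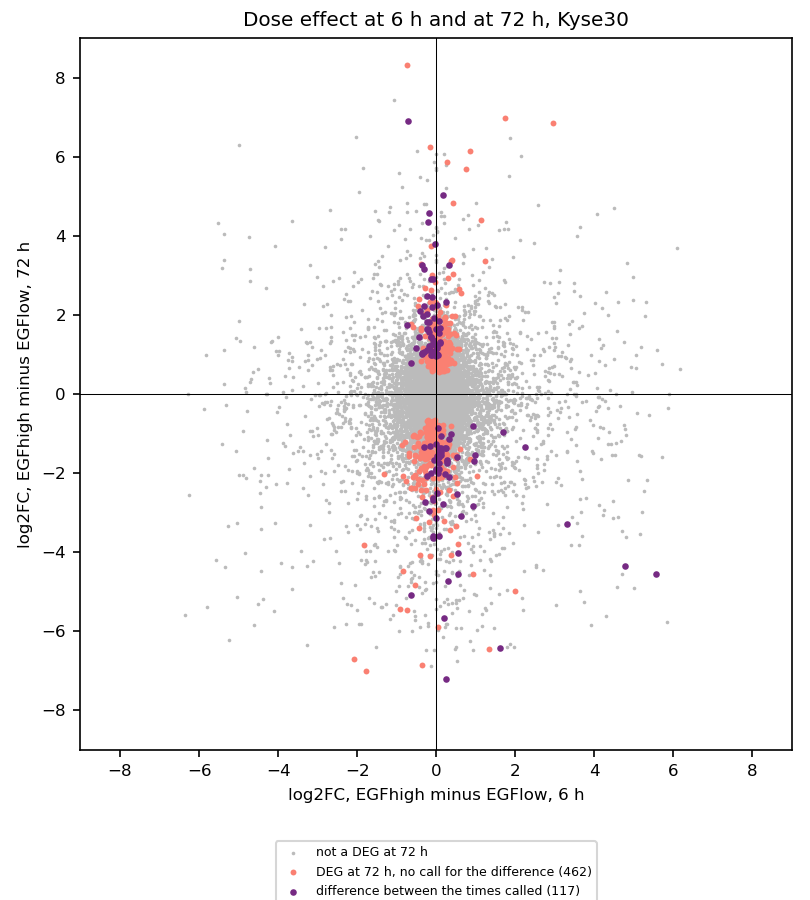
Log2FC of EGFhigh minus EGFlow at 6 h (x axis) and at 72 h (y axis) for the genes tested in Kyse30. DEGs of 72 h lie along the vertical axis, close to 0 at 6 h, and the 117 genes whose dose effect differed between the times are purple.

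Of the 94 DEGs named here, 43 were called in each of the 7 fits that left out 1 library, 21 were lost in 1 or 2 of them and 30 in 3 or more. Fits without a library compare 2 with 4 or 3 with 3 libraries, so fewer samples carry them. Over all 16 settings, 128 DEGs were always called, 77 higher and 51 lower.

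**Figure D5:**
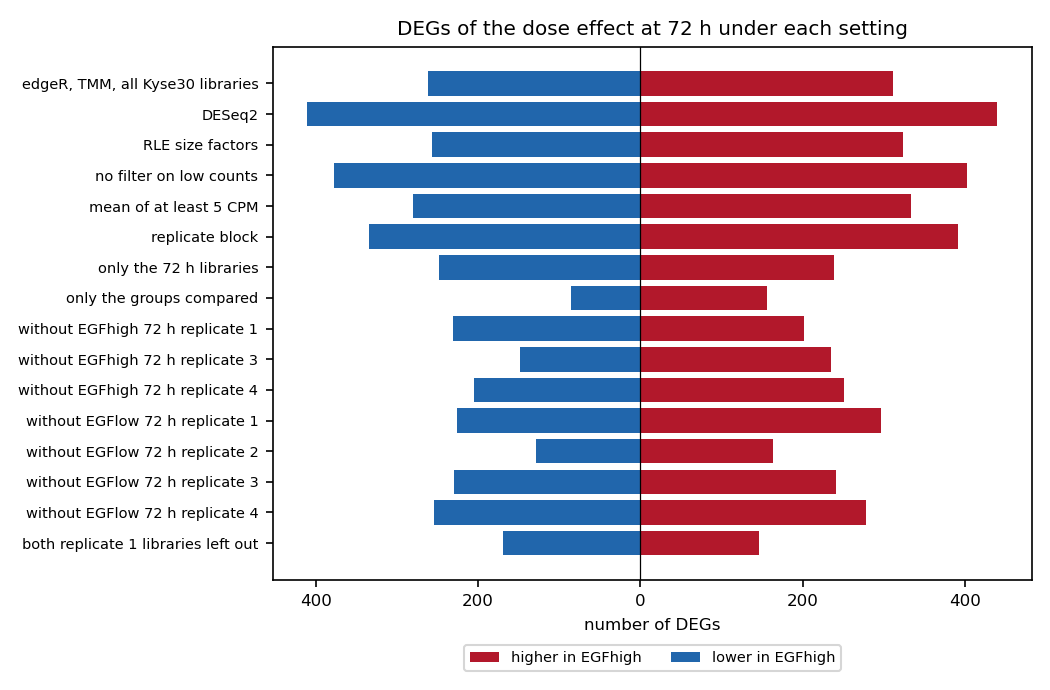
Number of DEGs of the dose effect at 72 h higher (red, right) and lower (blue, left) in EGFhigh under each setting, one bar pair per setting. The total runs from 241 when only the 7 libraries compared enter the fit to 850 with DESeq2.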

How the data were processed

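Gene counts of 84 libraries of the series were deposited, of which the 43 of Kyse30 entered the fit and 7 the comparison. The authors sequenced 3′ libraries (QuantSeq 3′ FWD), aligned the reads to GRCh38 (hg38) with STAR and made the deposited counts per gene with HTSeq, per the labels and the submitters' processing notes. Versions and the strand setting are not given in the sources used here, and reads without molecular identifiers stated are not independent molecules. Reads matching several places were not counted, which lowers genes with near-identical copies.

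Summary lines of the count files were left out of library sizes and tests. Of 58395 genes, listed by Ensembl identifier, 58275 had a symbol in GENCODE release 29, and 15350 passed filterByExpr (count 10, total 15). EdgeR 4.0.16 in R 4.3.3 fitted 1 quasi-likelihood model with a mean for each of the 13 Kyse30 groups, TMM scaling and Benjamini-Hochberg adjustment over all genes tested. The fit across all groups shares its estimate of spread. DEGs were called at an adjusted p no higher than 0.05 with a log2FC beyond 0.5 in either direction. Errors beside a log2FC are standard errors. The dose effects at 72 h and 6 h and their difference were tested as contrasts. Totals were 3703085 to 9499780 counts per library. The test was checked on simulated counts of the 72 h comparison. It recovered 27.3% of genes changed by a log2FC of 1 in either direction and 68.8% of those changed by 2, with 6 false calls among 14894 genes tested. A gene that was not called may thus still differ between the doses.

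Alternatives were DESeq2 1.42.0, its size factors, other filters, fewer libraries in the fit, each library left out, and the replicate number as a block. Deviations from the group means correlated at 0.289, 0.165 and 0.150 in libraries numbered 1, 3 and 4, so the numbers of the sample titles were taken to pair the samples. Between libraries with different numbers the correlations ran from -0.218 to 0.0972. The main fit had no term for the replicate number, which entered only as the block. Genes named were the 12 DEGs with a symbol, a mean of at least 5 CPM and no overlap that had the highest and the 12 that had the lowest log2FC, up to 4 DEGs per list by size of log2FC (where there was none, the most abundant member), and a fixed set. Others are marked where named, and some genes that the rule takes are not reported here. The members and lists were chosen with earlier results of these data known. Promoters came from RefSeq (GRCh38.p14). Figures were drawn with matplotlib 3.10.9.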

Additional observations from a re-analysis of the deposited data

Results flagged for a closer look

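Of the 121 genes named, 7 had 1 EGFlow library at 72 h set apart from the other 3 by Dixon's test, which chance alone gives in about 1 of 20 groups. The highest EGFlow library stood apart for KRT6A (126 CPM), CD44 (375 CPM), ACTN1 (345 CPM), CCND1 (516 CPM), C15orf48 (20.9 CPM) and SLC2A3 (20.3 CPM). For PLXDC2 the lowest did, at 1.10 CPM. KRT6A, CD44 and PLXDC2 share the library, EGFlow replicate 4. That library lay nearer to EGFhigh than the other 3 in these genes, as it did for FN1 (51.8 CPM) and TIMP3 (54.0 CPM), and the cause was not tested.

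The dose effect differed between 72 h and 6 h, by the test of the difference itself, in 117 genes of all those tested and in 31 of the genes named. Values are log2 differences, 72 h minus 6 h. Among epithelial differentiation and adhesion genes they were 4.86 for SPRR2A, 4.57 for SPRR1B, 2.53 for SPRR3, 3.63 for KRT16, 2.94 for S100P, 1.16 for S100A16, 1.56 for ITGB4, 1.48 for CD44 and 1.21 for ITGA2. Among other genes higher in EGFhigh they were 7.62 for PDE2A, 4.75 for MYH16, 3.82 for FAM83A, 3.03 for IL1RN, 2.55 for SERPINE2, 2.32 for ELOVL6, 1.56 for HMGA1 and 1.13 for CD59. Among genes lower in EGFhigh they were -5.85 for CPVL, -5.10 for ID4, -5.04 for VIT, -4.57 for ID2, -4.46 for C5, -3.72 for CTGF, -3.66 for FAT3, -3.55 for SEMA3D, -3.51 for FN1 and -3.14 for NRG1. The cell cycle genes TK1 (-1.82), BUB1B (-1.97) and KIF23 (-1.65) and the caveolin CAV1 (-1.60) had smaller differences.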

How the results depend on the processing

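The direction of the dose effect at 72 h held in all 16 settings for 117 of the 121 genes named. In fits without 1 library, the log2FC of SNAI2 ran from -1.53 to 0.0668, of CDH1 from -0.0765 to 0.912, of PLAU from -0.0722 to 2.02 and of CCND1 from -0.0207 to 0.460. The 573 DEGs (311 higher, 262 lower) became 241 (156 and 85) with only the groups compared in the fit and 315 (146 and 169) without both libraries numbered 1. They were 292 to 532 in fits without 1 library (163 to 297 higher, 129 to 254 lower), with the fewest without EGFlow replicate 2. Fewer libraries entered these fits. The share of higher calls was 54.3% and became 64.7% with only the groups compared. DESeq2 gave 850 (440 and 410), and the cause was not tested. Without a filter on low counts there were 779, with 5 of the 94 named DEGs lost and 7 of the 27 named genes not called gained. With only the groups compared 36 of the 94 named DEGs were not called, with only the 72 h libraries 21, without both libraries numbered 1 39, and with DESeq2 1. At 6 h, where edgeR otherwise gave 0, the fit without a filter gave 7 DEGs.

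The 117 genes whose dose effect differed between times (57 higher, 60 lower) were 213 with DESeq2 (97 and 116), 308 without a filter (151 and 157), 200 with the replicate block (97 and 103), 69 without both libraries numbered 1 (31 and 38), and 85 with only the groups compared, of which 30 lower. In fits without 1 library they were 49 to 139 (26 to 67 and 23 to 72). The replicate block gave 725 DEGs at 72 h and, beside the calls and counts given with the results, changed no other call of a named gene. Depth limits the low genes: 3 counts were 0.350 to 0.847 CPM, near the EGFhigh level of CPVL, C5 and PLXDC2.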
